A study of Drosophila melanogaster with 46 samples.

Results

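The 10 genes of the core cell death pathway of Drosophila melanogaster described here were chosen by name: the IAP antagonists reaper (rpr), head involution defective (hid), grim and sickle (skl), the caspase inhibitor Diap1, the initiator caspase Dronc and its adaptor Dark, the effector caspases Drice and Dcp-1, and the transcription factor p53. All 10 had a row in both deposited expression tables, which hold 12785 genes for the Pc mutant and 11771 for ph RNAi, and all 10 were among the 17684 annotated genes on the 6 main chromosome arms. The series holds 46 samples on the Polycomb repressive complexes, of which 14 bear on these genes, and all 14 came from eye discs, the larval precursor of the compound eye, of wandering third-instar larvae. Binding of PSC, which belongs to the Polycomb complex PRC1, and of Su(z)12, which belongs to PRC2, was mapped by ChIP-seq in discs labelled W1118 Oregon-R, with 2 replicates of about 500 pooled discs for each protein. Poly-A RNA was sequenced from 2 replicates of mutant discs labelled PcXT109 FRT2A, an allele of Polycomb (Pc) carried with an FRT recombination site, and from 4 replicates each of discs with RNAi against polyhomeotic (ph) and against white, each replicate about 150 pooled discs. Pc and ph both encode PRC1 subunits. The ph RNAi and white RNAi crosses share 1 parental stock and differ in the other, and the labels give stocks by number only, without the promoter that drives the RNAi. The labels name neither the control of the Pc comparison nor the share of a disc's cells that carried the mutation.

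In fly cells the IAP antagonists bind Diap1 and displace it from caspases. Dronc, assembled with Dark into the apoptosome, then cleaves Drice and Dcp-1, which dismantle the cell. rpr, hid and skl are known targets of p53 after irradiation, and hid is known in the eye for the removal of surplus cells between ommatidia. Polycomb complexes keep developmental genes silent through chromatin, and an enhancer region near rpr that answers irradiation has been described as silenced by them in late embryos.

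The targeted genes followed the labels in the authors' deposited tables. Pc itself had a log2 fold change of -1.64 ± 0.41 (SE; adjusted p = 0.00134, DESeq2 Wald test) in the Pc table. The copies ph-p and ph-d, near-identical in places so that the counting could split their reads, were at -0.80 ± 0.04 and -0.66 ± 0.05 in the ph table (adjusted p = 1.11e-88 and 6.89e-42). Smaller falls were also called across the tables. In the Pc table ph-d was at -0.38 ± 0.10 (adjusted p = 0.00175) and ph-p was not called. In the ph table Pc was at -0.14 ± 0.07 (adjusted p = 0.0453). Markers of the differentiating retina, which define the labelled tissue, were present, with 8 of 8 markers between 258 and 4143 mean normalised counts in the Pc table and between 334 and 5263 in the ph table. Of these 8, 7 were lower in the Pc mutant, and 8 were lower with ph RNAi with a median log2 fold change of -4.76. Of the 7 genes listed as disc epithelium markers, 3 were lower in the Pc mutant, namely ey, eya and so. The others, shg, arm, baz and crb, were not called there, with log2 fold changes from -0.21 to 0.09. All 7 were lower with ph RNAi, where ey, eya and so were at -2.40, -5.33 and -3.60. The other genes of that list ran from -0.87 to -0.20 with ph RNAi. The 7 haemocyte markers gave 0 calls in the Pc table and were all lower in the ph table (log2 fold changes from -3.26 to -1.84), and glia markers gave 2 of 4 lower in the Pc table and 3 lower and 1 higher in the ph table. Muscle markers summed to 133512 mean counts in the Pc table, with 5 of 6 lower in the mutant, and to 3883 in the ph table, with 4 of 6 lower. Fat body markers summed to 14992 mean counts with 3 of 5 lower in the Pc table, and to 646 with 0 of 5 called in the ph table. In such bulk samples fewer cells of a type and less RNA per cell cannot be told apart, and the part of these shifts in the values below was not tested.

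Only summary values were used for expression: the deposited tables give, per gene, the mean of size-factor-normalised counts over all libraries of a comparison, the log2 fold change with its SE, and an adjusted p, so values of single libraries cannot be shown. Depth per library is not in those tables and is unknown here. Whether replicates are separate pools of larvae is not stated in the labels, and if they are not, the p-values cover technical spread alone. A gene was called at an adjusted p under 0.05 from DESeq2's Wald test, over all genes of its table. Of 11297 genes tested in the Pc mutant, 3.64% were higher and 6.24% were lower (9.88% in either direction). Of 11009 tested with ph RNAi, 31.1% were higher and 34.9% lower (66.0% in either direction), so a call there was the common outcome. The median of all tested genes was 0.02 in the Pc table and -0.06 in the ph table, whereas the 84 cytoplasmic ribosomal protein genes had medians of 0.07 and 0.38. With changes taken relative to the ribosomal protein genes, the share of calls that were higher moved from 36.8% to 24.3% in the Pc table and from 47.1% to 19.1% in the ph table. The members whose call or sign depended on that choice are named with their values.

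In the Pc mutant, 2 of the 10 genes rose, rpr and hid, and 0 fell. Both encode IAP antagonists. The other 8 were not called, and the median log2 fold change of the 10 was 0.09 beside 0.02 over all genes in that deposited table. These 2 calls of 10 stand beside the 9.88% of all tested genes called there, with 3.64% called higher. With ph RNAi, 3 genes rose (rpr, Dcp-1 and p53), 4 fell (hid, Diap1, Dronc and Dark) and 3 were not called, with a median of -0.40 beside -0.06 over all genes. These 7 calls of 10 stand beside the 66.0% of all tested genes called in that table. When fold changes were centred on the ribosomal protein genes, the ph calls became 1 higher (rpr) and 6 lower (hid, Diap1, Dronc, Dark, Drice and Dcp-1). Of all 11009 genes tested with ph RNAi, 1456 were higher and 6150 lower under that centring.

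**Figure D1:**
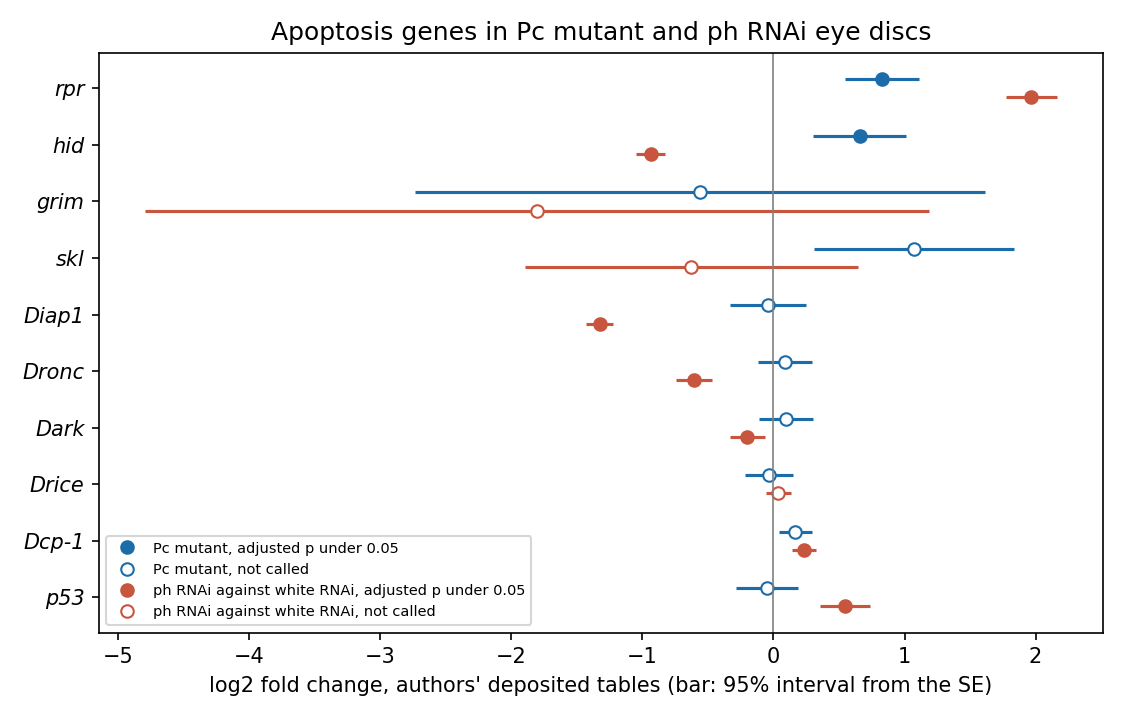
Log2 fold change (x axis) of the 10 genes in the authors' deposited tables for the Pc mutant (blue) and for ph RNAi against white RNAi (red). Bars are 95% intervals from the deposited SE and filled points have an adjusted p under 0.05. rpr lies to the right of 0 in both comparisons and hid on opposite sides, while Dcp-1, at 0.23 with ph RNAi, moves to -0.15 when changes are centred on the ribosomal protein genes.

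Among the IAP antagonists, rpr was higher in both comparisons. It had 348 mean counts and a log2 fold change of 0.83 ± 0.14 (SE) in the deposited Pc table, a 1.77-fold rise (95% interval 0.54 to 1.11 on the log2 scale, adjusted p = 7.80e-07). In the deposited ph table it had 660 mean counts and rose by 1.97 ± 0.10, or 3.91-fold (1.77 to 2.16, adjusted p = 8.54e-86). Both rises held under every centring tried. The ph change exceeded the Pc change by a log2 difference whose estimate, Pc minus ph, was -1.14 ± 0.18 (z test of the difference, adjusted p = 6.22e-10 over 10588 genes).

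hid went in opposite directions in the 2 comparisons. It had 2174 mean counts and was 1.58-fold higher in the deposited Pc table (log2 0.66 ± 0.18, 95% interval 0.31 to 1.01, adjusted p = 0.00469). In the deposited ph table it had 4442 mean counts and was 1.91-fold lower (log2 -0.94 ± 0.06, interval -1.05 to -0.82, adjusted p = 9.64e-60). The difference, Pc minus ph, was 1.59 ± 0.19 (adjusted p = 4.06e-16), and both directions held when changes were centred on all genes or on ribosomal protein genes.

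grim, which lies between the other two on the chromosome, was close to undetected. It had 2.05 mean counts in the deposited Pc table and 1.68 in the ph table. Its log2 fold changes of -0.56 (95% interval -2.73 to 1.62, adjusted p = 0.897) and -1.80 (-4.80 to 1.19, adjusted p = 0.305) were not called, and intervals this wide leave a difference of either sign undetectable at this depth. Annotated noncoding genes lie across it, lncRNA:CR45975 and asRNA:CR45974, and no source used here gives the strand setting of the counting.

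skl had 53.6 mean counts in the deposited Pc table and 10.5 in the ph table. Its log2 fold change was 1.07 ± 0.39 in the Pc mutant (95% interval 0.31 to 1.84, adjusted p = 0.0565) and -0.63 ± 0.65 with ph RNAi (-1.90 to 0.64, adjusted p = 0.410), so neither was called. The Pc value passed the threshold, at an adjusted p of 0.0483, when the deposited table was limited to genes with at least 50 mean counts. The difference between the comparisons was 1.70 ± 0.76 (adjusted p = 0.0491), and was not called once each table was centred on its median gene (adjusted p = 0.0606).

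Diap1, the ubiquitin ligase that holds caspases inactive, had the largest fall among the members called with ph RNAi. It had 9620 mean counts in the deposited Pc table, with a log2 fold change of -0.04 ± 0.15 (95% interval -0.33 to 0.25, adjusted p = 0.952). In the deposited ph table it had 11315 mean counts and was 2.51-fold lower (log2 -1.33 ± 0.05, interval -1.43 to -1.22, adjusted p = 2.11e-141). The difference was 1.28 ± 0.16 (adjusted p = 1.98e-15). With ph RNAi the RNA of Diap1 fell together with that of its antagonist hid while rpr rose, and in the Pc mutant rpr and hid rose and the Diap1 interval included 0.

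The apoptosome genes followed Diap1 in sign with ph RNAi, by smaller amounts. Dronc had 2029 and 2723 mean counts, with a log2 fold change of 0.09 ± 0.11 in the deposited Pc table (95% interval -0.12 to 0.29, adjusted p = 0.797) and -0.61 ± 0.07 in the ph table, a 1.52-fold fall (-0.74 to -0.47, adjusted p = 2.40e-17). Dark had 661 and 836 mean counts, with 0.10 ± 0.11 in the deposited Pc table (-0.11 to 0.30, adjusted p = 0.753) and -0.20 ± 0.07 in the ph table (-0.33 to -0.07, adjusted p = 0.00546). The fall of Dark is small, 1.15-fold, and lost its call, at an adjusted p of 0.0622, when changes were centred on the median of all genes. Both genes differed between the comparisons, by 0.69 ± 0.13 for Dronc (adjusted p = 2.66e-07) and 0.29 ± 0.13 for Dark (adjusted p = 0.0388, or 0.142 with each table centred on its median gene).

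Drice and Dcp-1 are the effector caspases, which cut the proteins of the dying cell. Drice, with 2673 and 3372 mean counts, was at -0.03 ± 0.10 in the deposited Pc table (95% interval -0.22 to 0.15, adjusted p = 0.936) and 0.04 ± 0.05 in the ph table (-0.06 to 0.13, adjusted p = 0.541). Centred on the ribosomal protein genes, the ph value of Drice became -0.35 (adjusted p = 2.92e-12). Dcp-1, with 1786 and 2023 mean counts, was at 0.17 ± 0.06 in the deposited Pc table (0.04 to 0.29, adjusted p = 0.0733) and 0.23 ± 0.05 in the ph table (0.14 to 0.32, adjusted p = 1.42e-06), a 1.17-fold rise that turned to -0.15 (adjusted p = 0.00171) under the same centring. No difference between the comparisons was detected for either, with intervals of -0.28 to 0.14 for Drice and -0.22 to 0.09 for Dcp-1.

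p53 had 445 mean counts and a log2 fold change of -0.05 ± 0.12 in the deposited Pc table (95% interval -0.28 to 0.19, adjusted p = 0.922). In the deposited ph table it had 545 mean counts and was 1.46-fold higher (0.55 ± 0.10, interval 0.36 to 0.74, adjusted p = 3.16e-08). Centred on the ribosomal protein genes its ph value was 0.16 and was not called (adjusted p = 0.123). The difference between the comparisons was -0.60 ± 0.15 (adjusted p = 0.000357). In all, 7 of the 10 genes differed between the Pc and ph comparisons (rpr, hid, skl, Diap1, Dronc, Dark and p53), beside 49.8% of all genes tested. That test assumes that the tables share no library, which the labels do not state, and the tables were normalised separately.

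Other genes of the pathway are given by lists of 45 genes in 6 groups, chosen with earlier results of these data known. The counts called in each list stand beside the shares of all tested genes. With ph RNAi 31.1% were higher and 34.9% lower, and in the Pc mutant 3.64% and 6.24%. Counts under ribosomal protein centring in the ph table stand beside 1456 higher and 6150 lower of 11009 tested genes. Of the 11 genes of the p53 pathway and the irradiation response, 11 rose with ph RNAi in the authors' deposited table (median log2 fold change 0.71) and 0 were called in the Pc mutant (median 0.06). RnrL, the large subunit of ribonucleotide reductase, rose by 1.40 ± 0.04 in the deposited ph table, with its adjusted p listed at 0. mre11, of the double-strand break complex, rose by 1.01 ± 0.06 (adjusted p = 1.77e-67), Irbp, the Ku70 homologue, by 1.32 ± 0.11 (8.95e-34), and mus205, a translesion DNA polymerase subunit, by 1.07 ± 0.09 (1.48e-34). When centred on the ribosomal protein genes 10 of the 11 still passed the test as higher, all but mei-41. Of the p53 targets named above, rpr rose with ph RNAi, hid fell and skl was not called. Activity of p53 was not tested. Chosen after its values were seen, Corp, a feedback regulator of p53, had the highest value of the list, 2.67 ± 0.23 (adjusted p = 6.77e-31), beside 0.55 ± 0.29 (adjusted p = 0.295) in the deposited Pc table.

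The TNF pathway list moved mainly the other way. Its ligand eiger (egr) was lower in both deposited tables, by a log2 fold change of -0.89 ± 0.20 in the Pc mutant (adjusted p = 0.000210) and -2.57 ± 0.19 with ph RNAi (2.29e-42). The adaptor Traf4 was also lower in both, at -0.71 ± 0.15 (7.81e-05) and -1.98 ± 0.20 (6.97e-22). Of its receptors, wengen (wgn) fell with ph RNAi by -3.01 ± 0.18 in the deposited table (adjusted p = 1.53e-60) and grindelwald (grnd) was at 0.34 ± 0.04 (1.25e-14), a sign that turned, to -0.05, under ribosomal protein centring. In counts, 2 of 5 were lower in the Pc table, and 1 was higher and 3 lower in the ph table (0 and 4 under ribosomal protein centring).

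Among 5 other caspase pathway genes, 1 was lower in the Pc table, and 2 were higher and 2 lower in the ph table. The caspase genes Damm and Strica moved apart in the deposited ph table, at 2.91 ± 0.40 (28.8 mean counts, adjusted p = 1.89e-12) and -1.88 ± 0.23 (147 mean counts, 8.61e-16). The adaptor gene Fadd was at 0.35 ± 0.10 (adjusted p = 0.00139) in the deposited ph table, or -0.04 under ribosomal protein centring, and Dredd, the caspase of the immune deficiency pathway, at -0.29 ± 0.06 (1.63e-06). Decay, an effector caspase, was lower in the deposited Pc table at -1.32 ± 0.43 (adjusted p = 0.0280). Decay had 288 mean counts in the Pc table and 1.25 in the ph table, and the muscle and fat body markers also had more counts in the Pc table. Log2 fold changes in the deposited Pc table ran from -2.06 to -0.85 for the 6 muscle markers (5 lower) and from -2.85 to -1.32 for the 5 fat body markers (3 lower). Their part in the Decay value was not tested.

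Of 10 IAP, ubiquitin and Bcl-2 family regulators, 1 was higher in the Pc table, and 3 were higher and 2 lower in the ph table. Cyt-c-p, the cytochrome c of the respiratory chain, was higher in both deposited tables, at 0.35 ± 0.12 (adjusted p = 0.0439) and 1.36 ± 0.05 (4.36e-174), and lost its Pc call under either centring. Buffy, a Bcl-2 family member, fell by 3.18 on the log2 scale in the deposited ph table (SE 0.41, 38.9 mean counts, adjusted p = 4.96e-14). The translation factor gene eIF3m (also Tango7) was at 0.45 ± 0.03 in the deposited ph table (3.97e-56), the giant ligase gene Bruce at 0.16 ± 0.05 (0.00210) and the ubiquitin-conjugating enzyme variant morgue at -0.18 ± 0.05 (0.000969). Bruce was among the 7 genes of this list called lower under ribosomal protein centring.

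Of 5 genes listed under the fragmentation of DNA by caspases and nucleases, 1 was lower in the Pc table and 2 in the ph table. Under ribosomal protein centring 5 were lower in the ph table, beside 6150 of all 11009 tested genes. Drep2, of the CIDE domain family, was at -0.52 ± 0.16 (adjusted p = 0.0164) and -2.42 ± 0.15 (1.48e-55) in the deposited tables, and DNaseII at -2.05 ± 0.68 (16.8 mean counts, 0.00459) in the ph table. Of 9 engulfment genes, 7 had a row, 0 were called in the Pc table, and 1 was higher and 3 lower in the ph table (1 and 5 under ribosomal protein centring). The receptors draper (drpr) and croquemort (crq) were at -0.77 ± 0.05 (adjusted p = 2.18e-47) and -0.73 ± 0.15 (2.56e-06) in the deposited ph table, the draper adaptor ced-6 at -1.47 ± 0.11 (1.38e-43), and the Rac activator gene mbc at 0.71 ± 0.06 (1.65e-36). The 3 that fell are also used by glia or haemocytes, whose markers were lower in 3 of 4 and 7 of 7 cases in the same table. Their part in these values was not tested.

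**Figure D2:**
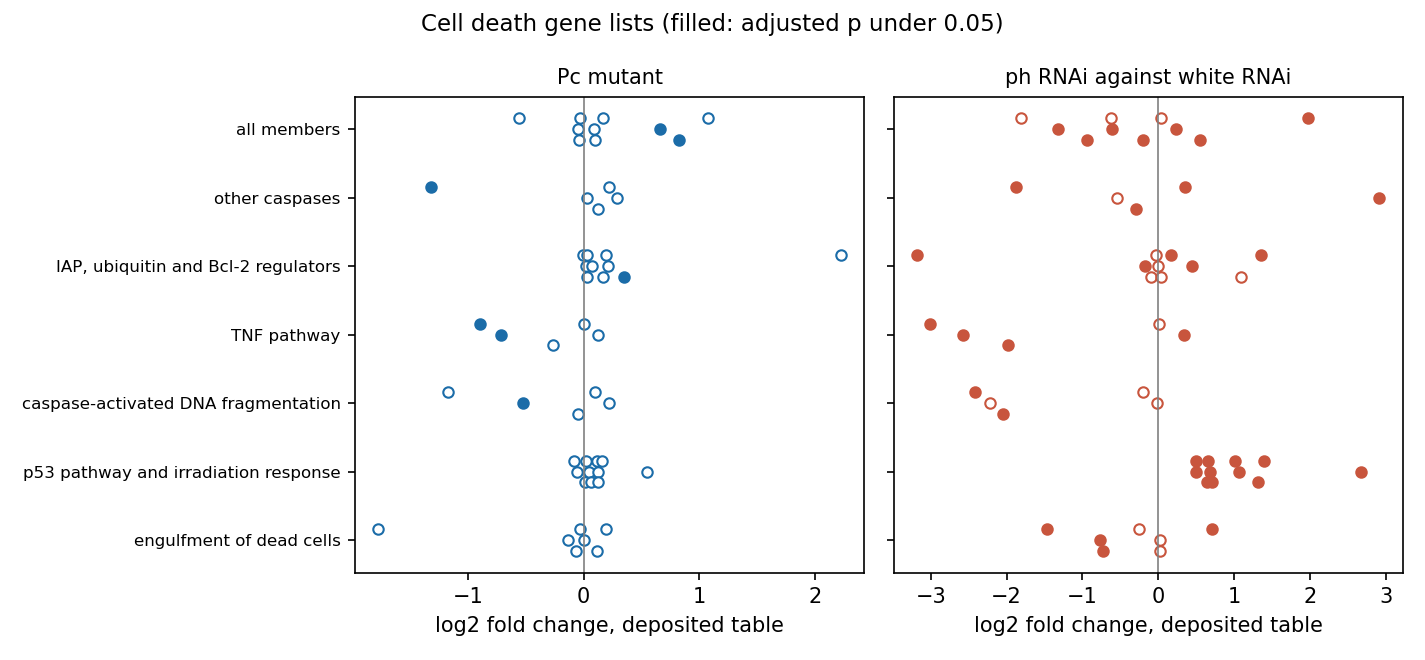
Log2 fold changes (x axis) of the 10 apoptosis genes and of the 6 other lists (y axis) in the deposited Pc table (left, blue) and ph table (right, red). Each point is 1 gene and filled points have an adjusted p under 0.05. The 11 genes of the p53 pathway and irradiation response lie above 0 with ph RNAi, of which 10 pass the test after centring on the ribosomal protein genes, and 0 of the 11 are filled in the Pc mutant. Of all tested genes, 31.1% were higher with ph RNAi and 3.64% in the Pc mutant. After that centring, 1456 of 11009 tested genes were higher with ph RNAi.

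PSC and Su(z)12 binding was read from peaks that the authors called on merged replicates and on each replicate. Folds are the authors' own values per peak, and positions are on the dm6 assembly, with gene ends from RefSeq's Release 6 annotation. Of the 10 genes, 4 had a merged PSC peak in the gene or within 5 kb (rpr, hid, Diap1 and Dronc), beside 45.9% of all annotated genes. Of the 10, 4 had a Su(z)12 peak (hid, Diap1, Dronc and Dark), beside 16.4% of all genes, and 3 had both, beside 15.4%. Longer genes offer more room for a peak: the shares with PSC were 38.3% of genes under 2 kb, 46.8% of 2 to 5 kb and 65.9% over 5 kb, and the members with a PSC peak numbered 1 of 4, 1 of 3 and 2 of 3 in those classes. For Su(z)12 the shares were 12.6%, 14.9% and 28.3%, and the members numbered 0 of 4, 1 of 3 and 3 of 3.

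**Figure D3:**
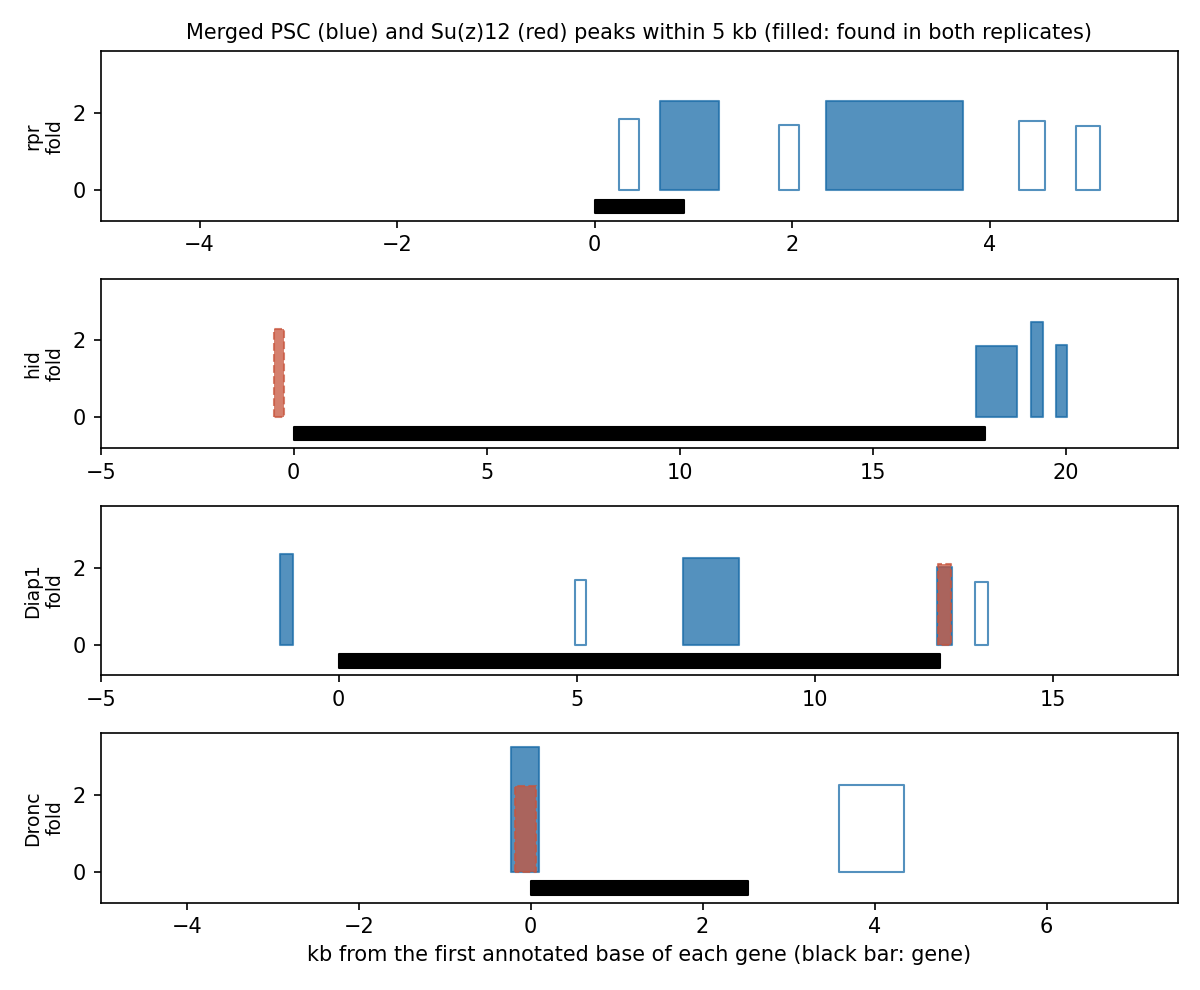
Merged PSC (blue) and Su(z)12 (red) peaks at rpr, hid, Diap1 and Dronc. The x axis is distance in kb from the first annotated base, the y axis is the authors' fold, the black bar is the gene, and filled boxes overlap a peak of both replicates. PSC and Su(z)12 coincide at 1 end of Diap1 and of Dronc and lie at opposite ends of hid.

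Dronc, at chr3L:9968479-9971002, carried the PSC peak of highest fold at any of these genes. The peak at chr3L:9968247-9968579 spanned the low-coordinate end of Dronc, with a fold of 3.25 in the merged list, above 95.3% of all 5999 PSC peaks, and folds of 3.54 and 5.26 in the replicates. A Su(z)12 peak of fold 2.24, found in both replicates, lay on the same bases (chr3L:9968299-9968542). The gene CG6685 overlaps both peaks as well, and 5 coding genes other than Dronc lie within 5 kb, so the peaks cannot be assigned to 1 gene. The second PSC peak, of fold 2.26, lay 1067 bp past the other end, overlapped the genes CG42455 and vnc, and was found in replicate 2 only.

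Diap1, at chr3L:16038410-16051034, had 5 merged PSC peaks in the gene or within 5 kb, 3 of them in both replicates. The widest covered 1180 bp inside the gene (chr3L:16045650-16046829, fold 2.25, replicates 2.49 and 2.80). A peak of fold 2.36 lay 964 bp before the gene, and its edge overlapped CG5895. With 5 coding genes other than Diap1 within 5 kb, that peak cannot be assigned to 1 gene. The third, at chr3L:16050976-16051294 with a fold of 2.02, crossed the high-coordinate end and overlapped the only Su(z)12 peak near Diap1 (fold 2.09, also in both replicates), within 5 kb of the gene Mbs. The remaining pair had folds of 1.67 and 1.62 and was found in replicate 1 only. Of that pair, the peak of fold 1.67 lay inside Diap1 and the peak of fold 1.62 overlapped Mbs.

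Dark, on chromosome arm 2R, had no PSC peak within 5 kb and 1 Su(z)12 peak, of fold 2.13, at 3843 bp from the gene. That peak was found in replicate 2 only and lies near Ehbp1 and Paip1. Drice, Dcp-1 and p53 had neither, and their nearest PSC peaks were 17433, 27113 and 73753 bp away.

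The 4 IAP antagonist genes lie in a row on 3L, hid at 18167745-18185641, grim at 18302719-18304417, rpr at 18397535-18398435 and skl at 18438561-18439942. This stretch, with 5 kb on either side, is 282.2 kb long and holds 17 annotated genes, of which 8 are coding. It held 25 merged PSC peaks, or 88.6 per Mb beside 38.2 per Mb over the arm 3L, covering 11346 bp. Their folds were modest, from 1.40 to 2.59 with a median of 1.78, beside a median of 1.97 over all PSC peaks. Of the 25, 9 overlapped a peak of both replicates, 14 of 1 replicate and 2 of neither, and replicate 1 alone gave 23 peaks and replicate 2 alone 11. Su(z)12 had 2 peaks, 7.09 per Mb beside 11.4 per Mb over 3L.

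The PSC peaks fell into groups at the hid end and at rpr. At the hid end, 19 peaks spread over 58.77 kb (chr3L:18185419-18244190), of which the first 8 lay within 10.25 kb starting at the high-coordinate end of hid. The first crosses the end of the gene (fold 1.84), and the peak of highest fold in the stretch, 2.59, lay at chr3L:18192523-18193646, in no annotated gene and in both replicates. At rpr, 6 peaks lay within 4.863 kb (chr3L:18397785-18402647). The strongest of these crossed the high-coordinate end of rpr (chr3L:18398192-18398798, fold 2.32, replicates 3.53 and 2.74), and a broader one of 1387 bp began 1441 bp beyond it (chr3L:18399876-18401262, fold 2.31, replicates 3.54 and 2.76). These were the only peaks at rpr found in both replicates.

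Between the groups lay 154 kb (chr3L:18244191-18397784) without a merged PSC peak. Of the 1073 gaps between neighbouring PSC peaks on 3L, 27 were at least as long, counting this one, and the median gap was 7.55 kb. grim lies inside this gap, 58.5 kb from one side and 93.4 kb from the other, and skl lies 35.9 kb past the last peak of the rpr group. rpr and hid have PSC peaks within 5 kb and grim and skl have none. In the Pc mutant rpr and hid were called higher, and skl and grim were not called. The log2 estimate of skl was the highest of the 4 (1.07, not called at an adjusted p of 0.0565). Its interval, 0.31 to 1.84, includes the estimates of rpr (0.83) and hid (0.66), and grim had too few counts for a call. Whether the Pc mutant values follow the peaks gene by gene was not tested.

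Su(z)12 differed in place. Its peak at chr3L:18167232-18167491 lay 254 bp before the low-coordinate end of hid, at the opposite end from the PSC peaks, with a fold of 2.29 and folds of 2.32 and 2.39 in the replicates. CG13699 also lies within 5 kb of it. The other Su(z)12 peak, at chr3L:18221551-18221773 with a fold of 1.81, overlapped a PSC peak of fold 1.93 between hid and grim and was found in neither replicate alone. rpr had none, with the nearest at 61978 bp.

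**Figure D4:**
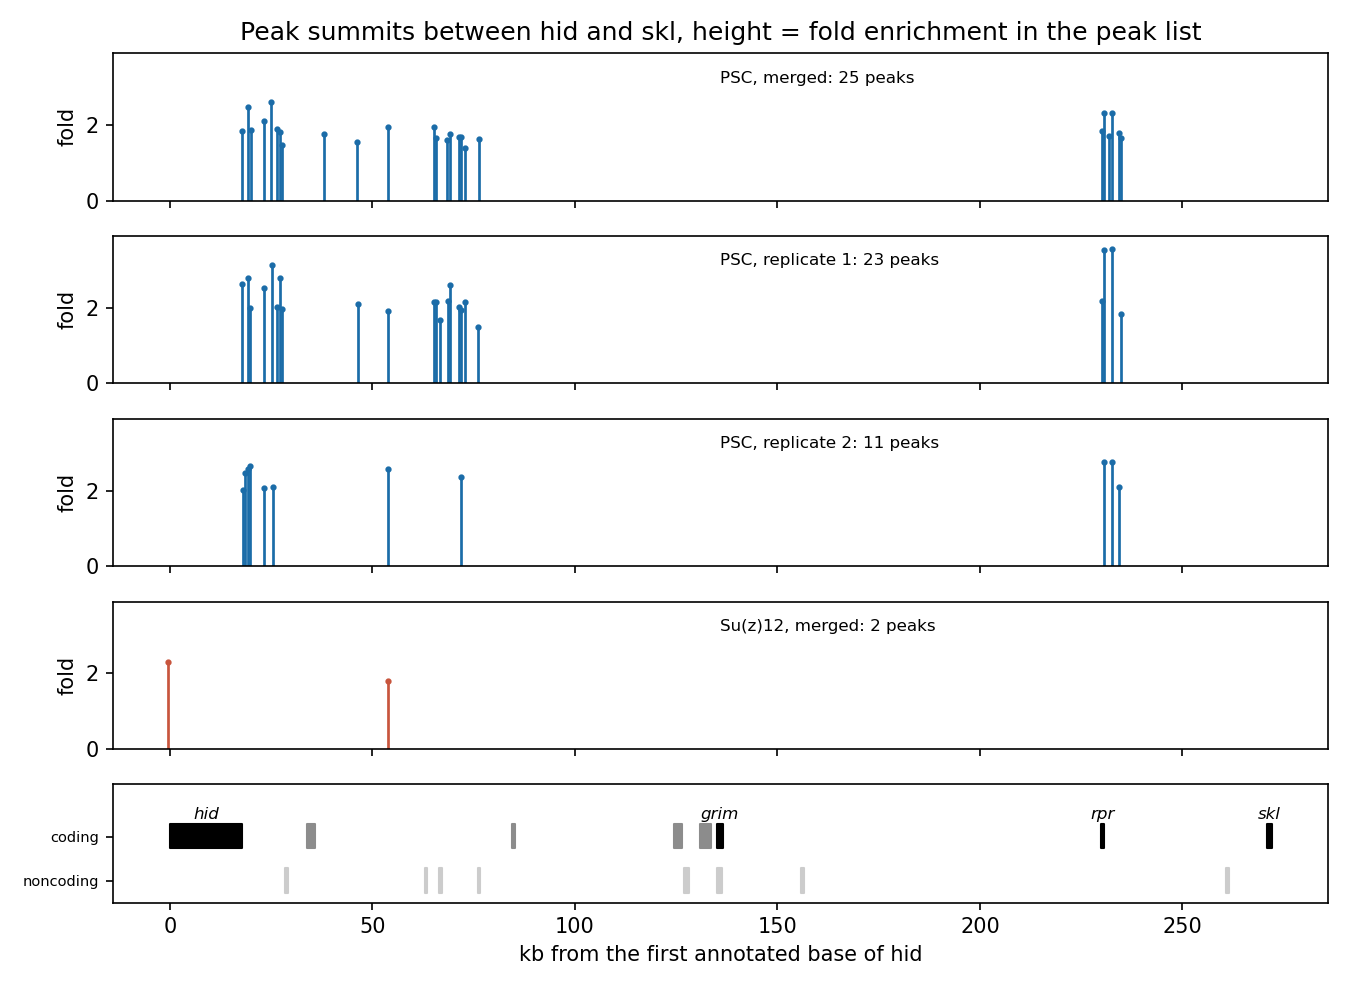
Peak summits (vertical lines, height is the authors' fold) from hid to skl for PSC in the merged list and each replicate and for Su(z)12, with annotated genes below. The x axis is the distance in kb from the first base of hid. The 25 merged PSC peaks form a group spread over 58.77 kb from the high-coordinate end of hid and a group at rpr. Between the groups lie 154 kb free of peaks, which hold grim.

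Other coding genes of the stretch gave few counts. CG7320, between hid and grim, had 7.37 mean counts and a log2 fold change of -1.98 ± 0.98 in the deposited Pc table (adjusted p = 0.241), and 8.47 mean counts with 1.54 ± 0.57 in the ph table (adjusted p = 0.0125, or 0.0643 under ribosomal protein centring). CheA75a, CG5103 and CG13700 were below 1 mean count wherever they had a row, and of these only CheA75a had an adjusted p, in the ph table, where it was not called (0.644). Of the genes with PSC peaks, rpr rose in both comparisons, hid rose in the Pc mutant and fell with ph RNAi, and Diap1 and Dronc fell with ph RNAi only by the calls of each table, a difference between the comparisons that passed its own test for both (adjusted p = 1.98e-15 and 2.66e-07). Of the 6 without one, Dark fell and Dcp-1 and p53 rose with ph RNAi, the latter pair only without ribosomal protein centring and Dark not under centring on all genes.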

How the data were processed

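The members and gene lists were chosen with earlier results of these data known. Per the submitters' processing notes, the tools named were STAR, HTSeq and DESeq2 1.22.1 for RNA, and Bowtie2, SAMtools and MACS2 2.1.1.20160309 for ChIP, on dm6. The authors deposited 2 expression tables, with the mean normalised count as a signal, the log2 fold change and its SE, the Wald statistic as a score, and p-values raw and adjusted, per the file headers. Each statistic equalled the fold change over its SE for 100.0% of genes. The authors also deposited 6 peak lists, with score, fold over local background, −log10 p and q and the summit position per peak, and the lowest −log10 q was 3.00. The expression tables used here hold no single-sample values, so depth is unknown, and no sequences were used.

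From these, 95% intervals were computed as the normal quantile times the SE, and the difference of the 2 fold changes was tested with a two-sided z test (SE in quadrature, Benjamini-Hochberg over 10588 genes, scipy 1.17.1). The z test was checked on simulated data. A peak was assigned to a gene if it overlapped the gene and 5 kb on either side by at least 1 bp. Genes not found by symbol were matched through RefSeq synonyms (eIF3m, Jafrac2, ced-6). Named genes were all members, genes of the interval with a row, Pc, ph-p and ph-d, and in each other list up to 4 called genes per table by smallest adjusted p. Corp and Bruce are given with values outside this rule and are not counted among the alternatives tried for the named genes. Alternatives were thresholds of 0.01 and of a log2 change of 1, a minimum of 50 mean counts, adjustment over every gene, 2 centrings, and for peaks windows of 0, 1 and 10 kb, each replicate, both replicates and a fold of at least 3. Of the 10 members, 5 overlap another annotated gene (grim, Diap1, Dark, Dcp-1 and p53), whose reads may not be separable.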

Additional observations from a re-analysis of the deposited data

Results flagged for a closer look

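The log2 fold change in the Pc table minus that in the ph table differed from 0 (z test, Benjamini-Hochberg over all genes) for 7 of the 10 members, beside 49.8% of all genes. It also did for 18 of the 23 genes named from the other lists and for 4 of 4 further genes (Pc, ph-p, ph-d and CG7320). The 23 were chosen as called in at least 1 table and Pc, ph-p and ph-d are the targeted genes, so nothing is read from those counts. Among the members these differences were -1.14 for rpr, 1.59 for hid, 1.70 for skl, 1.28 for Diap1, 0.69 for Dronc, 0.29 for Dark and -0.60 for p53. hid is the member called in opposite directions in the tables, 0.66 against -0.94. The difference of skl rests on 53.6 and 10.5 mean counts and that of Dark has an adjusted p of 0.0388.

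Among the other genes, the ph value was the higher one, so that the difference was negative, for RnrL (-1.27), Irbp (-1.30), mus205 (-1.15), mre11 (-0.85), Cyt-c-p (-1.01), Damm (-2.80), Tango7 (-0.43), mbc (-0.52) and CG7320 (-3.52). The Pc value was the higher one for Buffy (3.39), wgn (2.75), Strica (2.098), Drep2 (1.90), egr (1.68), Ced-6 (1.59), Traf4 (1.27), drpr (0.74), crq (0.60) and Dredd (0.58). The targeted genes differed by -1.50 for Pc, 0.58 for ph-p and 0.28 for ph-d.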

How the results depend on the processing

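No paired analysis was possible because the deposited expression tables hold no values per sample, and replicates could be left out only for peaks. Of 469 alternatives tried for the named genes, 416 kept direction and call, 39 lost the call, 4 gained it and 10 changed sign. Part of the 416 was fixed in advance. The thresholds of 0.01 and of a log2 change of 1 can neither change a sign nor call an uncalled gene. They gave 78 and 52 of the 416. Adjustment over every gene, the minimum of 50 mean counts and the difference test over every gene with a p in both tables cannot change a sign either. They gave 75, 62 and 9 of the 416. Only the centrings could change a sign. With a log2 change of at least 1 required, the Pc calls among members went from 2 to 0 and the ph calls from 7 to 2 (rpr and Diap1). The share of all genes called at that setting is not given here, so nothing about the members as a set is read from these counts. Sign changed under ribosomal protein centring for Drice (-0.35), Dcp-1 (-0.15), Fadd (-0.0366) and grnd (-0.0452) with ph RNAi, and for Fadd (-0.0466), Irbp (-0.0592), Tango7 (-0.0569) and morgue (-0.0419) in the Pc table, where Irbp (-0.0027) and Tango7 (-0.0004) also changed sign under centring on all genes. The difference between the comparisons was no longer called for skl and Dark under centring on all genes (adjusted p = 0.0606 and 0.142). Under that centring 5 of the 10 members differed, a count given without the share of all genes. The sign changes follow from the medians subtracted, 0.38 for ribosomal protein genes with ph RNAi.

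PSC peaks were at the same 4 members with any window and in each replicate, and at 1 (Dronc) with a fold of at least 3. The share of all genes with a PSC peak moved with the setting. It was 45.9% in the main setting, 20.0% with the gene body alone and 59.6% with 10 kb. It was 27.4% for peaks found in both replicates and 7.05% with a fold of at least 3. Members with Su(z)12 peaks went from 4 to 2 with the gene body alone and to 0 with a fold of at least 3. Over all genes the share went from 16.4% to 5.35% and 1.37% in those settings. In the stretch from hid to skl, PSC peaks went from 25 to between 11 and 23 with 1 replicate left out, to 9 when found in both and to 0 with a fold of at least 3, and the 2 Su(z)12 peaks went to 1 in each replicate, to 1 in both and to 0. Without per-library counts, the low counts behind grim and skl limit what those values show.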
